A study of Mus musculus with 18 samples.

Results

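The genes described here encode the proteins of the cytosolic ribosome, and their nascent RNA was followed through 5 erythroid populations and in lineage-positive (Lin+) cells of the mouse fetal liver. Members were the rows of the count table whose gene symbol starts with Rpl or Rps and goes on as a ribosomal protein number with at most a short suffix, together with Rplp0, Rplp1, Rplp2, Rpsa and Fau. Pseudogene rows with the ending -ps and the Rps6k kinases were left out. The rule takes no measured value, and it found 84 genes among 54232 identifiers, 50 of the large (60S) and 34 of the small (40S) subunit.

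Each ribosome holds a single copy of most of these proteins, so cells make them in nearly equal amounts, and their mRNAs are among the most abundant of a dividing cell. Many of these genes start transcription on a cytidine that is followed by a run of pyrimidines, and translation of such mRNAs is tuned by growth signals. Erythroid progenitors need many ribosomes to make globin, and loss of one allele of a ribosomal protein gene causes Diamond-Blackfan anaemia in people, whereas late erythroblasts wind down most transcription other than that of erythroid genes before the nucleus is lost.

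Cells came from C57BL/6 fetal livers at embryonic day 12.5 to 13.5. They were sorted, rested in erythroid medium and then given 500 µM 4-thiouridine for 45 min, a nucleoside that marks RNA made during the pulse so that it can be pulled out and sequenced (4sU-seq). The lineage-negative populations were ordered by the transferrin receptor CD71 and the red cell antigen Ter119: S0-Low (CD71-; Ter119-, titled CD71 low), S0-Medium (CD71 medium; Ter119-), S1 (CD71 high; Ter119-), S2 (CD71 high; Ter119 medium) and S3 (CD71 high; Ter119 high). Lin+ cells were the sixth population, and each population had 3 replicates, 18 libraries in all. The study calls the replicates biological, but the labels do not say whether they came from separate embryos or cultures, so p-values measure only the spread between these libraries.

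Libraries held 9452476 to 40567976 counts, with S0-Low replicate 3 the shallowest and S3 replicate 1, at 17978747, the next. No pair of replicates was alike within counting noise (lowest chi-square per degree of freedom 79.3). Levels are given as normalised CPM, the counts of a gene relative to the size of its library after TMM scaling, a method that assumes that most genes do not change between libraries. Markers followed the labels in the lineage-negative populations: the summed level of 8 erythroid markers was 500.3 to 1067 normalised CPM in S0-Low and 24317 to 41710 in S3, and that of 8 stem and progenitor markers was 1759 to 2556 in S0-Low and 28.3 to 29.8 in S3. Lin+ cells are labelled as primary erythroblasts, but their erythroid markers summed to 274 to 351 and their 8 granulocyte and monocyte markers to 3190 to 5739, with 1 of the 8 at 0, against 441 to 852 in S0-Low and at most 1.26 in S3. Lin+ libraries held the stem and progenitor markers at 1521 to 2307, within or below the range of S0-Low, and also 257 to 708 normalised CPM of megakaryocyte and 70.3 to 106 of macrophage markers. Lymphoid markers summed to at most 65.1 and hepatocyte markers to at most 9.05 in every library. In bulk samples such as these, fewer cells of a type and less RNA per cell cannot be told apart.

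The start sites of some members are shown because the pyrimidine run is the sequence feature these genes are known for. Windows of 30 bases were read from RefSeq promoter sequences (GRCm38.p6), with 20 bases before the annotated start and 10 from it on. Capitals mark the unbroken run of C and T from the start base, and windows without capitals start on another base. Rpl15 (chr14:18270977-18271006, minus strand), Rps27 (chr3:90213639-90213668, minus) and Rps21 (chr2:180257359-180257388, plus) were among the members with the lowest fold changes in S3 or passed the test there, and so were Rpl12 (chr2:32961692-32961721, plus) and Rpl27 (chr11:101442225-101442254, plus), which have no run or a run of 2 bases. Rpl13a, also among the lowest, starts on a G, as Rpl12 does. Fau (chr19:6057927-6057956, plus) is shown as a gene that did not pass, and Rpl24 (chr16:55966255-55966284, plus) and Rps19 (chr7:24884572-24884601, plus) as genes whose fold changes lay at the other end. For Rps19 and Rps21 the most upstream of several listed starts is given.
Rpl15: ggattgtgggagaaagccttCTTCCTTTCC
Rps27: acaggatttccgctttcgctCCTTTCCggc
Rps21: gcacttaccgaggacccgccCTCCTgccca
Rpl12: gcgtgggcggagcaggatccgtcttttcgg
Rpl27: ccggaacgctctgttcctgtCTgctgctcg
Fau: ggacgtgcgcgcccccacttCTTCCTCTTT
Rpl24: taggaagaaagctgttgctaggaaacagac
Rps19: agcactccgaaatctcgcgagactcgacgc

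Of the members, 63 matched the promoter table, with 75 listed starts. A C at the start base followed by at least 4 more pyrimidines stood at 14 of these starts, 18.7%, against 2.50% of all 32817 starts in the table. With such a run allowed to begin anywhere from 5 bases before to 10 after the start, it stood at 42.7% of the members' starts and 18.3% of all. In the 300 bases around the start, with both strands searched, the ETS-type motif CCGGAAG was found at 34.7% of the members' starts and 8.86% of all starts. The motif AAGATGGC, which YY1 binds, was found at 9 of the 75 starts and at 2.74% of all starts, and the SP/KLF motif GGGCGG at 60.0% and 35.6%. The E-box CACGTG stood at 10.7% and 7.15%, and the box TATAAA at 9.33% and 13.6%. Motifs of erythroid factors stood at lower or similar shares. The letters AGATAA, which erythroid zinc finger factors bind, were found at 6.67% of the members' starts and 11.2% of all, and CCACACCC, a KLF1-type motif, at 4.00% and 3.56%. A match is a description of the letters and not of a bound site.

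Ribosomal protein genes took a similar part of the nascent RNA from S0-Low to S2 and a smaller part in S3. They held 2.58%, 2.55% and 1.15% of the counts in S0-Low replicates 1, 2 and 3 (2.10% ± 0.816, SD, n = 3). The share was 1.80%, 2.49% and 2.48% in S0-Medium (2.26% ± 0.393), 2.41%, 2.46% and 1.34% in S1 (2.07% ± 0.634) and 2.95%, 2.67% and 0.798% in S2 (2.14% ± 1.17). These populations overlapped widely. In S3 the share was 1.10%, 1.08% and 0.361% (0.847% ± 0.421), and in Lin+ cells it was 2.24%, 2.16% and 0.942% (1.78% ± 0.729). All S3 libraries lay below all S0-Low libraries, but S3 and S2 overlapped, since S2 replicate 3 had a share below S3 replicates 1 and 2. Compared within a replicate number, the S3 share was 0.373, 0.405 and 0.453 of the S2 share and 0.426, 0.424 and 0.313 of the S0-Low share. TMM scaling, which sets little weight on genes that move most, narrowed these differences. On that scale the summed level of the members in S3 was 0.472, 0.615 and 0.674 of that in S2 and 0.636, 0.747 and 0.689 of that in S0-Low. The fall in share against S0-Low was not particular to the members. With library totals the median over all tested genes fell about as much, as given below. Globin genes held at most 1.04% of a library, and without them the mean share was 0.855% in S3 and 2.10% in S0-Low. The share of mitochondrially encoded genes was also lower in S3, at 1.53% to 2.93% against 3.95% to 4.51% in S0-Low and 4.48% to 7.33% in S2, and without these genes the members' mean share was 0.868% in S3 and 2.19% in S0-Low.

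**Figure D1:**
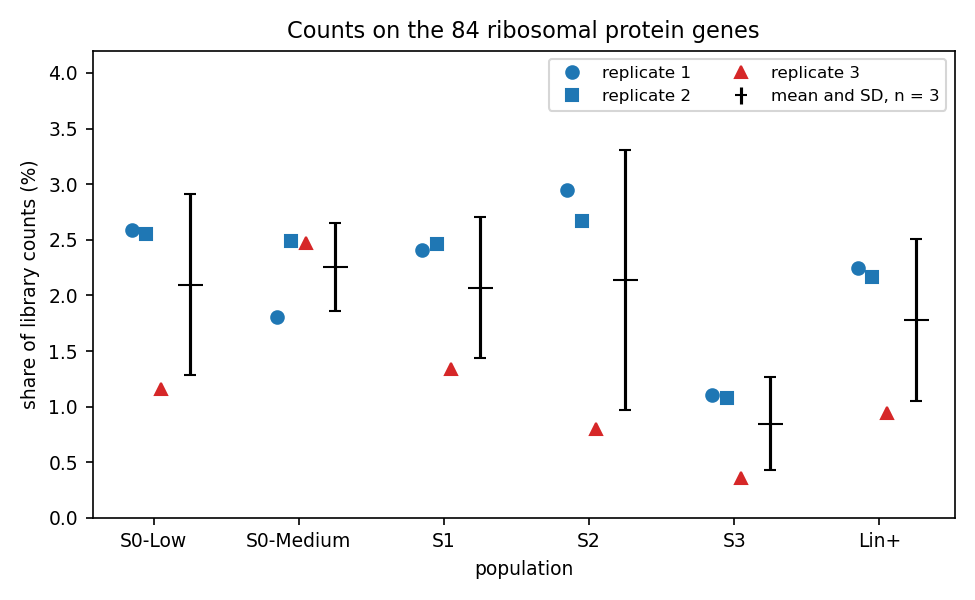
Share of each library's counts on the 84 ribosomal protein genes (y axis, %) by population (x axis), with each symbol 1 library, blue for replicates 1 and 2 and red for replicate 3, and the black mark and bar the mean and SD of 3. The 3 S3 libraries lie between 0.361% and 1.10%, and replicate 3 is the lowest library of every population except S0-Medium.

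Replicate 3 stood apart for these genes. In 5 of 6 populations its share was 0.284 (S2) to 0.549 (S1) of the mean of replicates 1 and 2, whereas in S0-Medium it was 1.15. Of 82 members tested, 80 were lowest in replicate 3 in S0-Low, 80 in S1, 79 in S2, 76 in S3 and 79 in Lin+, but 10 in S0-Medium. Over all 17755 genes the corresponding percentages were 50.3, 44.6, 37.4, 25.9, 30.2 and 44.3%. Other short transcripts moved less. The 1972 other genes with transcripts under 1000 bases held 8.99% to 12.02% of the counts in every library, 10.3% in S2 replicate 3 against 11.6% and 11.03% in replicates 1 and 2. What the replicate numbers stand for is not given in the sources used here, and the part of replicate 3 in the results below was measured by leaving it out.

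Nearly all members were expressed in these cells. A mean of at least 100 normalised CPM was reached by 61 members, and 80 had at least 1. Per kilobase of the median annotated coding transcript, 12 members were among the top 100 of 20958 genes with such a length. By the mean over all 18 libraries the highest were Rplp0 at 822 normalised CPM per kb, Rplp1 at 753, Rplp2 at 654, Rpl26 at 650.4 and Rpl8 at 633. In S3 alone the highest were Rplp0 at 640 normalised CPM per kb, Rpsa at 506, Rpl26 at 466, Rpl4 at 455 and Rpl8 at 447, with Rplp2 at 425 and Rplp1 at 385 below them. Rplp0, Rplp1 and Rplp2 form the stalk that recruits elongation factors to the ribosome, and Rplp1 and Rplp2 are present in more than a single copy. Rpl13 and Rpl10l were listed at 0 in all 18 libraries. For Rpl13, 84.8% of the 31-base stretches of its transcripts also occur in other genes, and whether this bears on the value of 0 was not tested. Over 80 members, whose levels span a wide range, Spearman's rho of the population means with S0-Low was 0.991 in S0-Medium, 0.987 in S1, S2 and Lin+ and 0.921 in S3. Between single libraries rho was 0.840 to 0.965 for the replicates of S0-Low, 0.862 to 0.896 for those of S3 and 0.767 to 0.929 for S3 against S0-Low libraries. The 60S genes held 56.9% to 62.4% of the members' counts in every library.

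**Figure D2:**
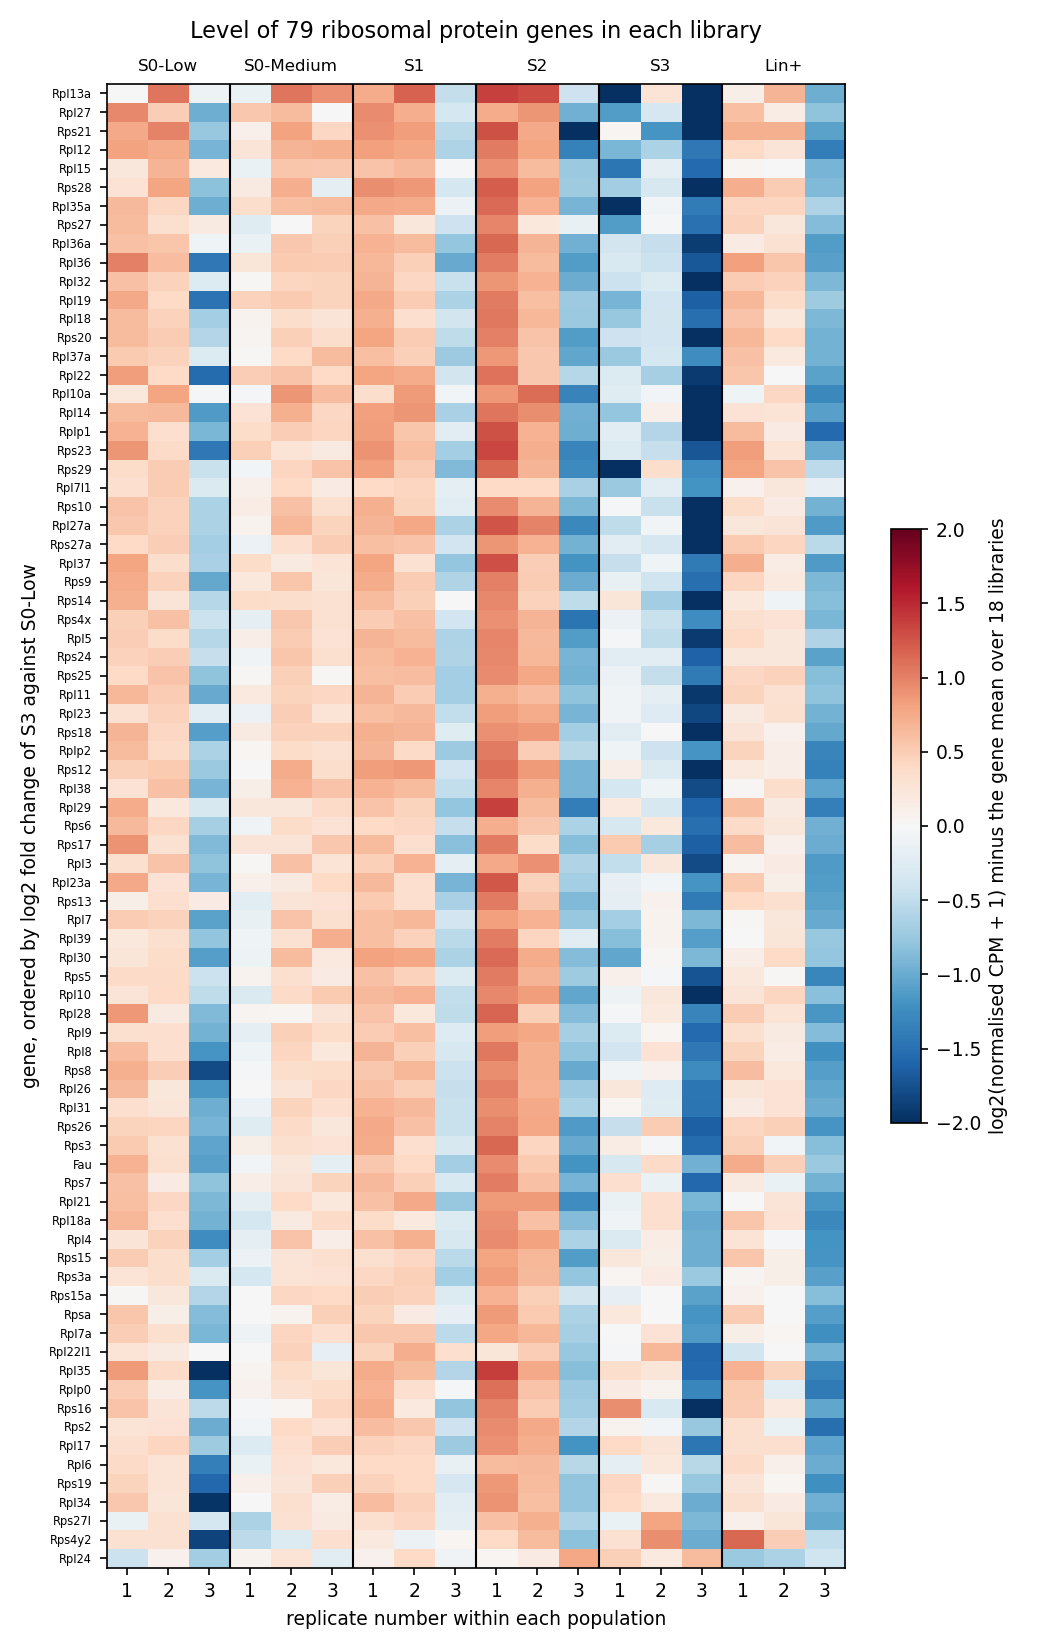
Level of 79 ribosomal protein genes (rows) in each of the 18 libraries (columns, by population and replicate number), as log2(normalised CPM + 1) minus the gene's mean over all libraries, with rows ordered by fold change between S3 and S0-Low. The replicate 3 columns other than that of S0-Medium are mostly blue (lower), S3 replicates 1 and 2 are blue mainly in the upper rows, and Rpl24 in the last row differs from the rest.

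The 3 steps from S0-Low to S2 ask whether these genes change as CD71 and then Ter119 rise, and no member was called in any of them. The fits held 81 members of 16555 genes tested, and 0% of all tested genes were called higher and 0% lower in S0-Medium against S0-Low, in S1 against S0-Medium and in S2 against S1. With edgeR's quasi-likelihood test, 0 members were below an unadjusted p of 0.05 in each step, against 3.26%, 6.86% and 4.03% of all genes, and DESeq2 called 0. The members' median log2 fold change was 0.10 in S0-Medium against S0-Low, 0.04 in S1 against S0-Medium and 0.13 in S2 against S1, beside 0.03, -0.02 and -0.05 over all tested genes. The sign was not stable in any of these steps. With single libraries left out the members' median ran from -0.21 (without S0-Low replicate 3) to 0.33 (without S0-Low replicate 1) in the first step, from -0.20 (without S1 replicate 1) to 0.30 (without S1 replicate 3) in the next and from -0.22 (without S2 replicate 1) to 0.50 (without S2 replicate 3) in the last. In S1 against S0-Medium it was also -0.12 with library totals and -0.14 with the replicate block. Without the replicate 3 libraries the medians were -0.23, 0.35 and 0.24. Rpl22l1, the paralog of Rpl22, had a log2 fold change of 0.40 ± 0.47 (SE, as in all fold changes given this way) in S1 against S0-Medium and -0.44 ± 0.47 in S2 against S1, both with adjusted p = 1 in edgeR.

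The step from S2 to S3, when Ter119 becomes high, is where most members had lower values. Of 81 members, 78 had a negative log2 fold change, and the median was -0.93, against -0.31 over all genes tested. It was lower at each transcript length with at least 15 members, at -1.07 against -0.31 in other genes under 600 bases, -0.88 against -0.35 from 600 to 1000 and -0.82 against -0.36 from 1000 to 2000. The test called 0 members higher and 0 lower, where it called 3.26% of all genes higher and 6.09% lower. At an unadjusted p under 0.05, 17 members were lower and 0 higher, against 17.5% and 8.96% of all genes, and DESeq2 called 3 lower, Rpl15 and Rps27 among them, against 13.3% of all genes. Low values were those of Rpl13a (log2 fold change -2.13 ± 1.01, adjusted p = 0.190), Rpl27 (log2 fold change -1.47 ± 0.60, adjusted p = 0.129) and Rpl12 (log2 fold change -1.43 ± 0.56, adjusted p = 0.117). Rpl24 (0.08 ± 0.30) and Rps4y2 (0.09 ± 0.64) lay at the other end. No member's S3 libraries were all below its S2 libraries, and S2 replicate 3 was the lowest S2 library for 79 of 82 members. Within replicate numbers, 67 of 81 members were lower in S3 than in S2 in each of 3 comparisons, against 26.7% of all genes.

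The result of this test depended on how replicates were treated. Same-numbered S2 and S3 libraries deviated together only weakly over genes, with correlations of 0.111, 0.211 and 0.214. With the replicate number as a block in edgeR, 24 of 81 members passed the test, all lower, against 11.3% of all genes. They came from both subunits, with Rpl27 at -1.43 ± 0.33 (adjusted p = 0.0079), Rpl22 at -1.30 ± 0.32 (adjusted p = 0.0118) and Rplp1 at -1.30 ± 0.33 (adjusted p = 0.0141). Without the replicate 3 libraries 47 members were called lower, against 11.6% of all genes, with a median of -0.96 beside -0.26 over all genes. The members' median thus lay about as far below that of all genes with and without replicate 3, and 76 of 81 members lay below the all-gene median in the fit with all libraries. With library totals in place of TMM the medians of the members and of all genes both moved down, to -1.42 and -0.82, and 14 members were called lower, against 13.7% of all genes. Leaving out S2 replicate 3 gave 15 calls, against 8.62% of all genes, and leaving out S3 replicate 2 gave 5, against 9.11%.

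S3 against S0-Low compares the ends of the series, and here the members had a median close to that of all genes with all transcript lengths pooled, while below that of other genes under 600 bases. Their median log2 fold change was -0.62, beside -0.54 over all tested genes, and 48 of 81 members lay below the all-gene median. The members' transcripts are short, with a median of 725.5 bases against 2315 for the 13025 other tested genes with a coding transcript length. Fold changes varied with length. Genes without such a length are in the all-gene medians but in no length group. Under 600 bases 27 members had a median of -0.78 and other genes -0.20, from 600 to 1000 bases 37 members had -0.55 and other genes -0.40, and from 1000 to 2000 bases 15 members had -0.38 and other genes -0.56. Of 81 members, 76 had a negative and 5 a positive fold change, the highest at 0.76. The test called 0 members higher and 3 lower, where it called 13.4% of all genes higher and 22.4% lower. At an unadjusted p under 0.05, 1 member was higher and 9 were lower, against 17% and 30.5% of all genes. DESeq2 called 9 lower and 1 higher, Rpl3l, which had few counts, against 30.1% and 15.4% of all genes. With the replicate block 24 members were called lower, against 26.4% of all genes. Without replicate 3 the call was made for 29 members, all lower, against 24% of all genes, and the medians were -0.66 and -0.60. These calls rested on single libraries: 10 members were called lower without S0-Low replicate 3 (21.8% of all genes) and 8 without S3 replicate 2 (20.1%), 1 without replicate 1 of either population, and 0 without S0-Low replicate 2 or S3 replicate 3. Library totals moved both medians by about the same amount, to -1.39 and -1.36, with 42 members called lower against 37.6% of all genes, so a statement on a single member holds relative to the bulk of genes. Within replicate numbers 62 of 81 members were lower in S3 in each of 3 comparisons, against 33.6% of all genes.

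**Figure D3:**
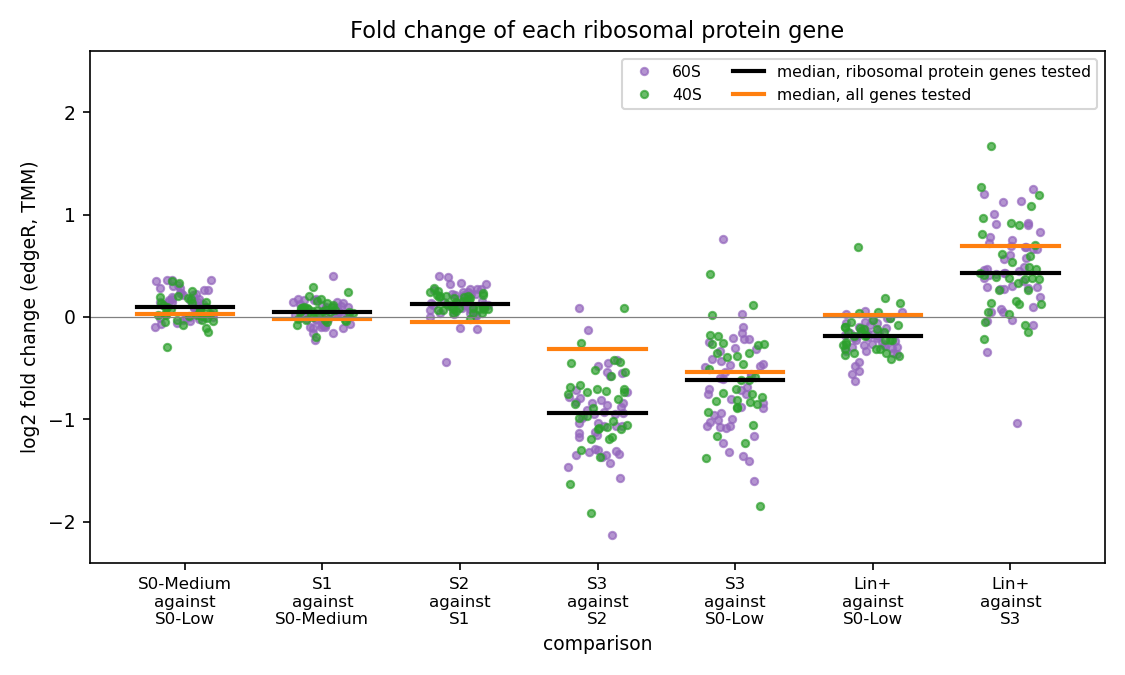
Log2 fold change (edgeR, TMM scaling, y axis) of each ribosomal protein gene in 7 comparisons (x axis), 1 point per gene, purple for 60S and green for 40S, drawn for the 80 genes with a mean of at least 1 normalised CPM, with a black line at the median of the members tested and an orange line at the median of all genes tested. The black line is well below the orange one in S3 against S2 (-0.93 and -0.31) and close to it in S3 against S0-Low (-0.62 and -0.54, with all transcript lengths pooled).

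Among the 3 members that fell in S3 against S0-Low were the 60S gene Rpl15 (ENSMUSG00000012405, chr14:18267823-18270986 in GRCm38.p6) and the 40S gene Rps27 (ENSMUSG00000090733, chr3:90212667-90213648). Rpl15 stood at 95.4, 130.4 and 92.6 normalised CPM in S0-Low, 154, 126 and 48.2 in S2 and 29.3, 71.4 and 27.1 in S3, with no overlap between S0-Low and S3 and a log2 fold change of -1.32 ± 0.45, adjusted p = 0.0336. Rps27 stood at 99.6, 80.1 and 72.3 in S0-Low, 126, 74.2 and 57.5 in S2 and 28.8, 61.6 and 22.1 in S3, again with no overlap between S0-Low and S3, and had a log2 fold change of -1.16 ± 0.43, adjusted p = 0.0448. Both start on a pyrimidine run, as shown above. Between S3 and S0-Low, all 14 members with such a start had a negative fold change, with a median of -0.73, and of 46 tested members of the promoter table without one 42 did, with a median of -0.57. In S3 against S2 the medians were -1.06 and -0.89.

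Rpl13a is a 60S gene whose introns hold small nucleolar RNAs (chr7:45125563-45128745), and it did not pass the test. Its normalised CPM was 18.8, 40.5 and 17.3 in S0-Low and 1.82, 22.9 and 0.402 in S3, so that 1 S3 library lay within the S0-Low range and the others far below it. The fold change was -1.60 ± 0.99, adjusted p = 0.215, with edgeR. It was -4.54 without S3 replicate 2 and -1.06 without S3 replicate 3.

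The 60S genes Rpl27 and Rpl12 and the 40S gene Rps21 were also among the 5 lowest. Rpl27 stood at 98.2, 71.0 and 24.8 normalised CPM in S0-Low and 22.6, 39.5 and 10.7 in S3 (log2 fold change -1.41 ± 0.60, adjusted p = 0.0732). Rpl12, which sits at the base of the stalk, stood at 420.4, 402 and 127 in S0-Low and 127, 155 and 88.9 in S3 (log2 fold change -1.36 ± 0.56, adjusted p = 0.0676). Rps21 stood at 101, 119 and 34.6 in S0-Low and 61.0, 25.7 and 11.8 in S3 (log2 fold change -1.38 ± 0.77, adjusted p = 0.169). None of these passed the test, and in each the lowest S0-Low library, replicate 3, was within the range of S3. By subunit, the median fold change was -0.69 over 47 tested 60S genes, with 1 called lower, and -0.61 over 34 40S genes, with 2 called lower, beside the 22.4% of all genes called lower. In S3 against S2 these medians were -0.95 and -0.83.

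In S3 against S0-Low, members whose libraries did not overlap made up a smaller share than among all genes. Levels in S3 were below those in S0-Low in every library for 7 of 81 members, Rpl10a, Rpl15, Rpl32, Rpl36a, Rpl37a, Rps13 and Rps27, of which all but Rpl10a, Rpl15 and Rps27 are named after their values were seen, against 25.9% of all genes. They were above for 1, Rpl24, against 16.6% of all genes. S0-Low replicate 3 was the lowest S0-Low library for 80 of 82 members, against 50.3% of all genes. Within replicate numbers the order was the reverse, with 62 of 81 members lower in each of 3 comparisons against 33.6% of all genes. The difference in share was not tested. Relative to the members' total, so that a shift shared by all of them drops out, 9 members did not overlap upwards and 11 downwards between S3 and S0-Low, against 15.8% and 20.8% of all genes. With libraries scaled to the members' counts, 0 of 81 members were called by edgeR in either direction in S3 against S0-Low, against 10.4% of all genes called higher and 16.2% lower. Scaling to their own total centres the members but not other genes. The all-gene shares are thus not a like background for these counts, and nothing is concluded from the contrast.

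Rpl24 was the member with the highest fold change in S3 against S0-Low. It encodes a 60S protein at the face between the subunits and is mutated in the Belly spot and tail mouse (chr16:55966275-55971437). Its normalised CPM was 75.6, 109 and 62.5 in S0-Low, 108, 123 and 87.7 in S0-Medium, 109, 135 and 97.4 in S1, 105, 115 and 176 in S2, 142, 117 and 159 in S3 and 60.9, 66.0 and 77.3 in Lin+. Every S3 library was above every S0-Low and every Lin+ library, and replicate 3 was not low in S2 or S3, unlike for most members. The fold change was 0.76 ± 0.30, adjusted p = 0.0617, past the threshold neither here nor in S3 against S2, and with library totals it turned to -0.08. It was called higher in S3 than in S0-Low with the replicate block (0.78 ± 0.27, edgeR, adjusted p = 0.0339) and in the fit to all 18 libraries (0.76). Rpl24 took 0.321%, 0.510% and 0.690% of the members' counts in S0-Low and 0.950%, 0.736% and 2.55% in S3. Its annotated coding transcripts hold 5673 distinct stretches of 31 bases, against a median of 919 for the members, of which 12.6% occur in other genes.

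**Figure D4:**
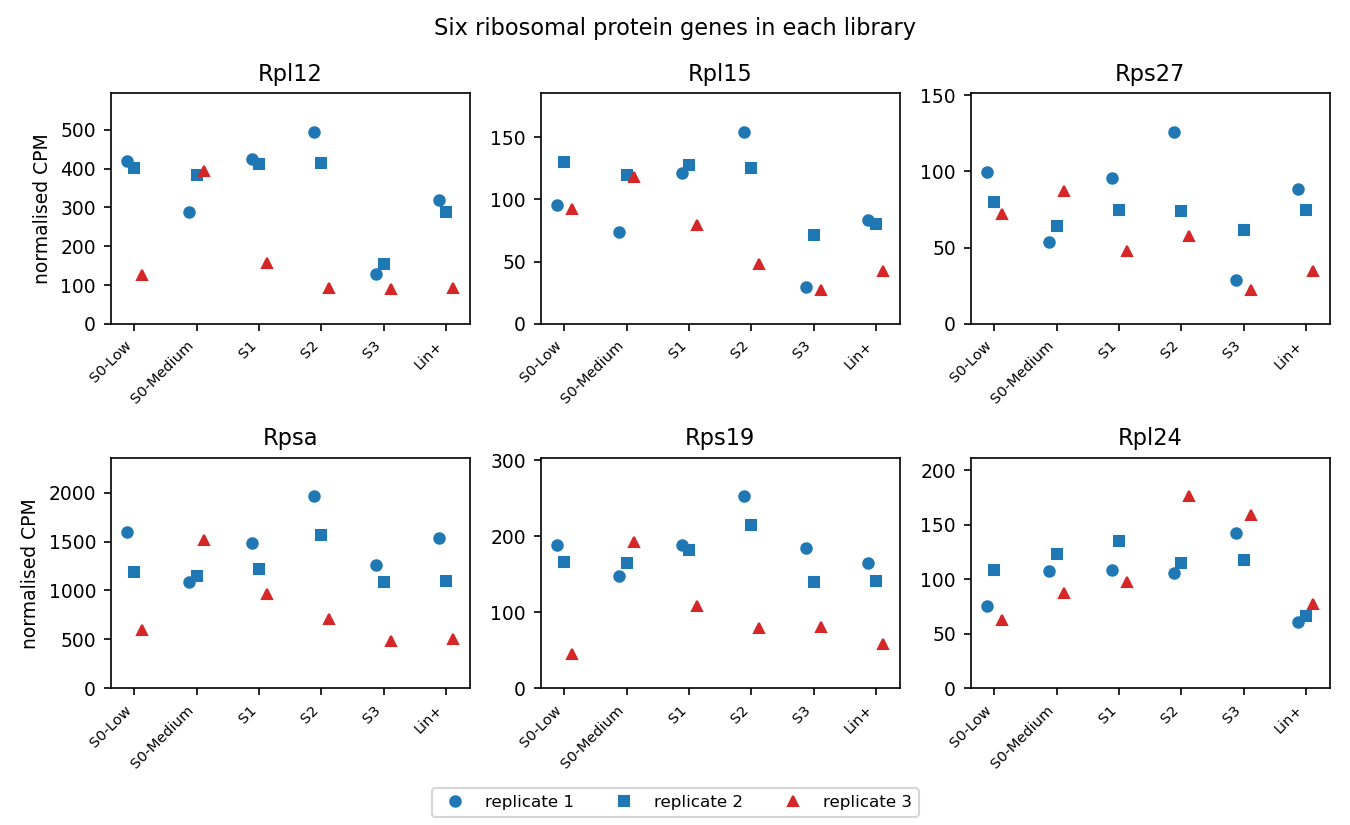
Normalised CPM (y axis, linear from 0) of 6 ribosomal protein genes in each library by population (x axis), with blue circles and squares for replicates 1 and 2 and red triangles for replicate 3. Rpl12, Rpl15 and Rps27 have their lowest mean in S3, Rpsa and Rps19 overlap between all populations, and Rpl24 in S3, at 117 to 159, lies above S0-Low and Lin+.

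The genes of the stalk proteins, Rpsa and Fau did not pass the test in any comparison with all libraries, TMM scaling and no replicate block. With the block, Rplp1 and Rplp2 were called lower in S3 against S2, Rplp2 at -0.90 ± 0.28 (edgeR, adjusted p = 0.0403), and Rplp1 in S3 against S0-Low at -0.96 ± 0.33 (adjusted p = 0.0307). Rpsa, a 40S protein first described as a laminin receptor precursor, stood at 1594, 1186 and 598 normalised CPM in S0-Low, 1961, 1572 and 704 in S2 and 1256, 1092 and 479 in S3. S3 replicates 1 and 2 lay within the S0-Low range (log2 fold change -0.26 ± 0.44, adjusted p = 0.668). Rplp0 stood at 1088, 847 and 337 in S0-Low and 859, 801 and 309 in S3 (log2 fold change -0.21 ± 0.49, adjusted p = 0.760). Its partners on the stalk had lower values in S3, Rplp1 with 522, 404 and 169 in S0-Low and 278, 214 and 79.4 in S3 (log2 fold change -0.94 ± 0.54, adjusted p = 0.186) and Rplp2 with 418, 349.6 and 172 in S0-Low and 254, 202 and 117 in S3 (log2 fold change -0.72 ± 0.45, adjusted p = 0.226). The difference between Rplp0 and its partners was not tested. Fau, which encodes a ubiquitin-like protein fused to a 40S protein, stood at 230.4, 178 and 67.0 in S0-Low and 114, 185 and 73.0 in S3 (log2 fold change -0.35 ± 0.53, adjusted p = 0.625).

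Gene copies with tissue-bound expression were listed at or near 0. Rpl3l, the copy used in heart and skeletal muscle, had 0 to 51 counts per library, and Rpl39l, best known from testis, had 0 to 35, beside levels of their partners Rpl3 and Rpl39 of 200.1 to 1316 and 13.1 to 60.5 normalised CPM over all libraries. Rpl10l, the testis copy of Rpl10, was listed at 0 throughout. Since Rpl13, a gene that every cell uses, is listed at 0 in the same estimated counts, no limit on the level of Rpl10l is drawn from this value. Shares and counts carry more than counting error, since PCR reads without molecular identifiers are not independent molecules. Rpl7l1, Rpl22l1, Rps27l and Rps4y2 were expressed. Rpl7l1 stood at 202, 229 and 132 in S0-Low and 96.0, 139 and 69.3 in S3 (log2 fold change -0.89 ± 0.35, adjusted p = 0.0593), beside Rpl7 at 577, 561 and 192 in S0-Low and 253, 428 and 217 in S3 (log2 fold change -0.57 ± 0.47, adjusted p = 0.361).

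The pairs of Rpl22, Rps27 and Rps4x had unlike values in S3. Rpl22, an RNA-binding 60S protein needed for T cell development, stood at 324, 239 and 61.7 in S0-Low and 149.9, 114 and 47.5 in S3 (log2 fold change -1.01 ± 0.56, adjusted p = 0.166), whereas its copy Rpl22l1 stood at 57.3, 53.8 and 47.2 in S0-Low and 46.2, 75.3 and 15.2 in S3 (log2 fold change -0.21 ± 0.47, adjusted p = 0.746). Rps27l, a target of p53, stood at 26.2, 35.8 and 22.2 in S0-Low and 26.1, 50.3 and 15.0 in S3 (log2 fold change 0.12 ± 0.50, adjusted p = 0.872), while Rps27 fell. Rps4y2, which RefSeq lists as the transcribed pseudogene Rps4l on chromosome 6, stood at 26.9, 26.9 and 5.23 in S0-Low and 26.8, 41.9 and 10.3 in S3 (log2 fold change 0.42 ± 0.64, adjusted p = 0.634), and Rps4x at 322, 345 and 171 in S0-Low and 213, 169 and 97.0 in S3 (log2 fold change -0.81 ± 0.50, adjusted p = 0.215). Differences within pairs were not tested. Reads of such genes can be split between copies: 44 of 84 members share over 50% of their 31-base stretches with another annotated gene, 99.0% for Rps27 and 12.3% for Rps27l, and 4 share none (Rpl3l, Rpl4, Rpl8 and Rps9). Counts on the 140 rows named as ribosomal protein pseudogenes were 0.00236% to 0.0175% of a library.

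Of 20 members whose human counterparts are mutated in Diamond-Blackfan anaemia, 2 were called lower in S3 against S0-Low (Rpl15 and Rps27) and 0 higher, with a median of -0.77 beside -0.62 over all members tested and beside 22.4% of all genes called lower and 13.4% higher. Rps19, the gene mutated most often in that anaemia, stood at 188, 166 and 45.7 in S0-Low, 252, 215 and 78.8 in S2 and 184, 140.2 and 81.3 in S3, with wide overlap (log2 fold change 0.02 ± 0.50, adjusted p = 0.983). It was among the 5 members with the highest fold changes, together with Rpl24, Rps4y2, Rps27l and the 60S gene Rpl34, which stood at 193, 158 and 33.4 in S0-Low and 174, 153 and 65.9 in S3 (log2 fold change 0.03 ± 0.55, adjusted p = 0.973). Rpl5 and Rpl11 bind the 5S rRNA and, when free, the p53 regulator Mdm2. Rpl5 stood at 425, 389 and 202 in S0-Low and 293, 211 and 79.0 in S3 (log2 fold change -0.80 ± 0.53, adjusted p = 0.247) and Rpl11 at 188, 168 and 58.5 in S0-Low and 113, 103 and 30.2 in S3 (log2 fold change -0.75 ± 0.54, adjusted p = 0.285). Rps14, which lies in the region lost in the 5q- syndrome, stood at 209, 153 and 85.5 in S0-Low and 150.2, 78.1 and 25.8 in S3 (log2 fold change -0.82 ± 0.51, adjusted p = 0.220).

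No member passed the test between Lin+ and S0-Low. In the fit of all 18 libraries 82 members of 17755 genes were tested, 0 were called higher and 0 lower against S0-Low, where 0.496% of all genes were called higher and 0.22% lower, and DESeq2 called 0. At an unadjusted p under 0.05 there was 1 higher, Rpl3l, at 0 to 51 counts, and 0 lower, against 6.89% and 2.96% of all genes. Their median log2 fold change was -0.18, beside 0.02 over all genes, and 73 of 82 were negative. Its sign turned without S0-Low replicate 1 (0.05) and without Lin+ replicate 3 (0.15), and it reached -0.51 without S0-Low replicate 3. The members furthest apart were Rps4y2 (log2 fold change 0.68 ± 0.64, adjusted p = 0.908), Rps29 (log2 fold change 0.19 ± 0.67, adjusted p = 0.997) and Fau (log2 fold change 0.14 ± 0.54, adjusted p = 0.997) on the higher side and Rpl15 (log2 fold change -0.63 ± 0.44, adjusted p = 0.810), Rpl22l1 (log2 fold change -0.55 ± 0.46, adjusted p = 0.877) and the 60S gene Rpl10a (log2 fold change -0.53 ± 0.63, adjusted p = 0.952) on the lower side. Rpl10a, for example, stood at 235, 349 and 199 normalised CPM in S0-Low and 190.2, 269 and 82.4 in Lin+, with overlap.

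Between Lin+ libraries, which hold markers of other lineages and of stem and progenitor cells, and S3, 2 members differed. Against S3, 1 member was called higher in Lin+ and 1 lower, where 28.2% of all genes were called higher and 14.1% lower. At an unadjusted p under 0.05, 2 were higher and 1 lower, against 33.9% and 16.8% of all genes, and DESeq2 called 5 higher and 1 lower, against 33.5% and 14.5% of all genes. Rpl24 fell, at 60.9, 66.0 and 77.3 against 142, 117 and 159 (log2 fold change -1.04 ± 0.29, adjusted p = 0.00870), a call that was lost with library totals (-0.23, or -0.25 with the replicate block too), with no filter (-0.94, adjusted p = 0.0650), with only the 6 libraries compared (-0.80, adjusted p = 0.0530) and with libraries scaled to the members' counts (-1.37, adjusted p = 0.134). Without S3 replicate 2 the test called 8 members higher, against 25.9% of all genes. With the replicate block it called 12 higher, against 32.1% of all genes. Without replicate 1 or 3 of S3 or replicate 1 or 2 of Lin+ it called 0 higher, against 20% to 23.4% of all genes. In each of these fits it called 1 lower, Rpl24, against 10.6% to 13% of all genes. The members' median was 0.42 and that of all genes 0.69, an order that turned among genes under 600 bases, where 27 members had 0.49 and other genes 0.30. With single libraries left out the members' median ran from 0.10 (without S3 replicate 3) to 0.79 (without S3 replicate 2). With libraries scaled to the members' counts, which centres the members but not other genes, 1 member passed, against 23% of all genes called higher and 8.96% lower. This comparison and S3 against S0-Low share the S3 libraries, so the values of Rpl24 in them are not separate evidence.

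Genes that act with the ribosome were set beside the members, and their counts are to be read against the 22.4% of all genes called lower and 13.4% called higher in S3 against S0-Low and the 6.09% and 3.26% in S3 against S2. In S3 against S0-Low, 45 ribosome assembly genes, which act in the nucleolus on rRNA transcription, cleavage and folding, had a median of -1.90, with 19 called lower and 1 higher, and in S3 against S2 a median of -1.88, with 7 lower and 0 higher. The 24 other translation genes, elongation and initiation factors among them, had medians of -0.14 (6 lower, 2 higher) and -0.67 (2 lower, 1 higher). The 74 mitochondrial ribosomal protein genes had medians of -0.45 (7 lower, 0 higher) and -0.81 (3 lower, 0 higher). The median fold change of the assembly genes was below that of the ribosomal protein genes in both comparisons, a difference that was not tested between the lists and not matched for transcript length. In Lin+ against S0-Low the median of the assembly genes was -0.65, with 0 called in either direction, and that of the translation genes was -0.35 and of 75 mitochondrial ribosomal protein genes -0.10.

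**Figure D5:**
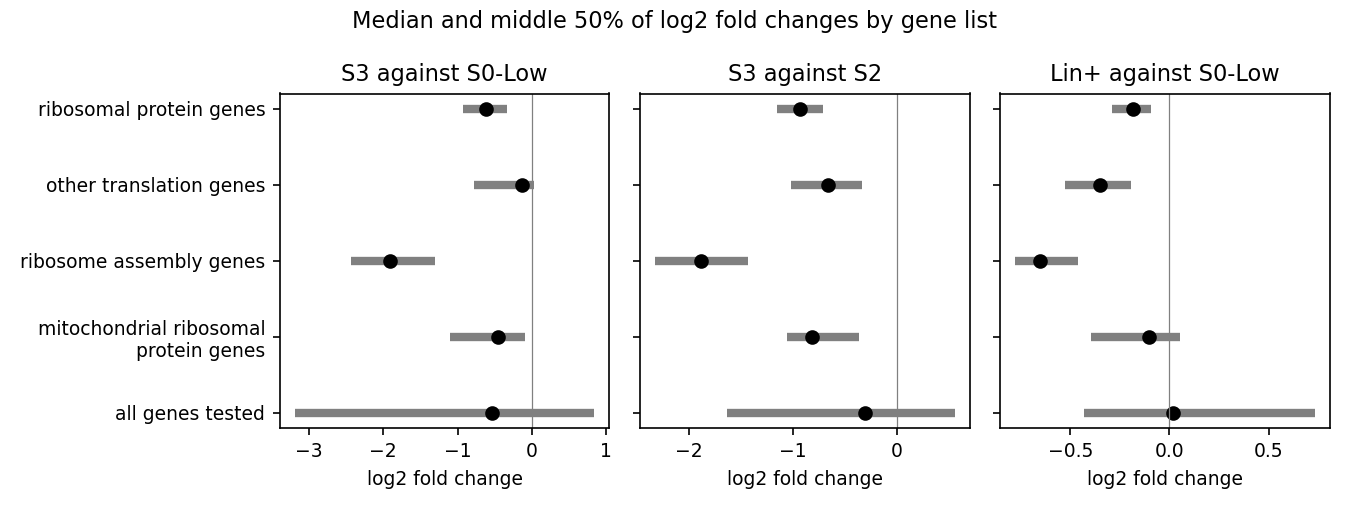
Median (dot) and middle 50% (grey bar) of the log2 fold changes (x axis) of the ribosomal protein genes, 3 related gene lists and all tested genes (rows) in S3 against S0-Low, S3 against S2 and Lin+ against S0-Low. In S3 the ribosome assembly genes lie lowest (-1.90 and -1.88), and the ribosomal protein genes lie near all genes, pooled over transcript lengths, against S0-Low and below them against S2.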

How the data were processed

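The authors sorted fetal liver cells, labelled new RNA with 4-thiouridine, made stranded libraries by PCR without molecular identifiers and estimated counts per gene with Kallisto 0.43.0 (GRCm38, per the submitters' processing notes). The deposited estimated counts are whole numbers, not normalized and not pooled. Kallisto splits reads that fit several transcripts, so near-identical genes share counts. The transcript set is not given in the sources used here.

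Members and gene lists were chosen with earlier results of these data known. Counts were fitted on the whole table in R 4.3.3 with edgeR 4.0.16 (TMM, filterByExpr with populations as groups, two-sided quasi-likelihood test, Benjamini-Hochberg adjusted p under 0.05) in 15 erythroid libraries, or in all 18 where Lin+ entered. The common biological coefficient of variation was 0.795 and 0.771. Standard errors are the fold change divided by the square root of the F statistic. The code of the fits was run on simulated counts with large known changes and a smaller spread than in these data. That run says nothing of power or error rates here. Tables and plots used Python 3.11.15, numpy 2.4.6, pandas 2.3.3 and matplotlib 3.10.9. Symbols came from a names table that covers 32651 identifiers, and positions and start windows from RefSeq GRCm38.p6.

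Named were the 5 highest and 5 lowest fold changes in S3 against S0-Low and the 3 and 3 in Lin+ against S0-Low (at least 100 normalized counts, called or not), the 5 highest levels per length, paralog pairs, the stalk genes, Rpsa, Fau, 4 anaemia genes and called members. Other members are said to be named later. Results for 1 member are not reported here.

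Same-numbered libraries were checked for pairing by the correlation of their deviations from the population means over genes. It was 0.111, 0.211 and 0.214 in S2 and S3, 0.291, 0.264 and 0.240 in S0-Low and S0-Medium, 0.366, 0.388 and 0.408 in S0-Medium and S1, and 0.286, 0.309 and 0.388 in S1 and S2, so the replicate block is given there where it changes a count. Alternatives were DESeq2 1.42.0, RLE factors, library totals, other filters, other libraries in the fit, the replicate block and each replicate left out. The other 3 (no replicate 3 libraries, scaling to the members, library totals with the block) were added after seeing the data.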

Additional observations from a re-analysis of the deposited data

How the results depend on the processing

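In S3 against S0-Low 3 members were called lower as reported (22.4% of all genes). The counts, each with the share of all genes called in the same fit, were 9 (30.1%) with DESeq2, 7 (24.8%) with RLE factors, 8 (18%) where each compared library had to hold at least 10 counts, 12 (14.3%) with no filter, 42 (37.6%) with library totals, 72 (41.8%) with library totals and the replicate block, 29 (24%) without replicate 3 and 0 (16.2%) with scaling to the members, and 0 to 10 with single libraries left out. The count called higher, 0 as reported, was 1 with DESeq2 (15.4%) and with all 18 libraries (13.4%), and 0 to 1 with single libraries left out, 1 without S3 replicate 1 (12.3%). The median was -1.52 with library totals and the replicate block, and -0.99 to -0.34 with single libraries left out. In S3 against S2 the count called lower, 0 as reported (6.09%), was 3 (13.3%) with DESeq2, 1 (5.97%) with at least 10 counts, 18 (5.93%) with no filter, 14 (13.7%) with library totals, 64 (21.5%) with library totals and the replicate block, 24 (11.3%) with the block alone, 47 (11.6%) without replicate 3, and 0 to 15 with single libraries left out. In Lin+ against S3 the count called higher, 1 as reported (28.2%), was 5 (33.5%) with DESeq2, 3 (31%) with RLE factors, 6 (19.4%) with at least 10 counts, 2 (16.5%) with no filter, 22 (40.1%) with library totals, 63 (45.6%) with library totals and the replicate block, 2 (28.7%) with only the 6 libraries compared, 16 (25.7%) without replicate 3, and 0 to 8 with single libraries left out. The count called lower there, 1 as reported (14.1%), was 0 with library totals (7.54%), with library totals and the replicate block (9.15%), with no filter (7.39%), with only the 6 libraries compared (12.5%) and with scaling to the members (8.96%). The cause of these shifts was not tested.

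In S3 against S0-Low, Lin+ against S0-Low and Lin+ against S3, same-numbered pairs deviated together less over all genes than in S2 and S3. Replicate 3 was nonetheless low for the members in S0-Low, S3 and Lin+. The pairing correlations were 0.0352, 0.0956 and 0.0557, then 0.0835, 0.136 and 0.138, then 0.0756, 0.0755 and 0.104. With the replicate block, 24 members (26.4% of all genes) were called lower and 1 (15.9%), Rpl24, higher in S3 against S0-Low, and 12 (32.1%) higher in Lin+ against S3, and it changed no count in Lin+ against S0-Low or in the steps from S0-Low to S2. Of the main counts, medians and shares under an alternative, 339 moved by less than the limits used and 48 by more, and of the values of single genes 999 kept their side of the threshold, 84 passed it under an alternative and 17 no longer did. Few members were called as reported, so most values of single genes had no call to lose. The tally is therefore not a measure of robustness.

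Depth limits what can be said of Rpl3l and Rpl39l, and S0-Low replicate 3, at 9452476 counts, is the shallowest library.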
